A study of Mus musculus with 7 samples.

Results

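The regions described here are stretches of the mouse genome that were open in every ATAC-seq library of a reprogramming time-course, from mouse embryonic fibroblasts (MEFs) to embryonic stem cells (ESCs). They were chosen by merging all touching or overlapping peaks of the 7 libraries on chromosomes 1 to 19 and X and keeping each merged region that a peak of every library overlapped by at least 1 base. Of 104244 merged regions, 10157 met this rule, which is 9.74%. Since the peaks themselves chose the members, the number of libraries, the peak widths and the shared stretches below are descriptions and were not tested, whereas annotation and sequence were not used by the rule.

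ATAC-seq marks open chromatin by letting Tn5 transposase cut accessible DNA. The 6 MEF-derived libraries carry the Col1a1tm1(tetO-Pou5f1,-Klf4,-Sox2,-Myc)Hoch allele of a B6;129S4 strain and the Gt(ROSA)26Sortm1(rtTA*M2)Jae allele of a B6.Cg strain, so that doxycycline switches on the Oct4, Klf4, Sox2 and Myc transgene through rtTA driven from the ROSA 26 locus, and they comprise an untreated day 0 library and libraries collected 1, 2, 3, 6 and 9 days into doxycycline at 2 µg/mL. The ESC library is from the untreated line Bruce-4, although its genotype entry repeats that of the MEFs, so whether these ESCs hold the cassette is not settled by the labels. Each time-point is 1 library of a mixed culture, so no test between libraries was possible, and a peak lost in a part of the cells cannot be told apart from a weaker peak in all of them.

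In a cell, a promoter that is kept free of nucleosomes typically lies in a CpG island and is bound by factors such as Sp1, NF-Y, Nrf1, Yy1 and Ets proteins, which serve genes that nearly every cell needs. Away from promoters, the zinc finger protein CTCF holds many sites open across cell types, where it stops cohesin and shapes chromatin loops. Enhancers, in contrast, tend to be open in the cell types that use them, and AP-1 dimers of Fos and Jun occupy many of them in fibroblasts.

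The sequences of a few members show what these elements look like and which motifs the counts below rest on. The first pair are the 200 bp windows at the centres of the members closest to Rassf7, at chr7:141221792-141221991, and to Olfr750, at chr14:51064907-51065106, both on the plus strand of mm10 and both intergenic. They are shown because they were the intergenic distal members with a CTCF consensus and the widest shared stretches, and the capitals mark the consensus on the minus strand.
Rassf7 window: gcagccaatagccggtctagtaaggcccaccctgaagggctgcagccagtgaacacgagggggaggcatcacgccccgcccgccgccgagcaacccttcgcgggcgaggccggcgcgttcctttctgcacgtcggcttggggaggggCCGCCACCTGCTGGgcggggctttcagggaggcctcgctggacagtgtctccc
Olfr750 window: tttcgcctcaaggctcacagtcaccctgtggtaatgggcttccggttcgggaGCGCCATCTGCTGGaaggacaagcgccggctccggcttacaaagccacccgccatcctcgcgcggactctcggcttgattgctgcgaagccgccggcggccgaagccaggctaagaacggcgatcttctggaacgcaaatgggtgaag
The other sequences are the 150 bp upstream of a gene start inside a member, read in the direction of the gene, and were chosen because the genes belong to the groups below and because together they show several of the motifs counted below, common and rare. They are Srsf2 at chr11:116853095-116853244 on the minus strand, Ctcf at chr8:105636418-105636567 on the plus strand, Psmd11 at chr11:80428465-80428614 on the plus strand, Rpl37 at chr15:5116495-5116644 on the plus strand, Atf7 at chr15:102625465-102625614 on the minus strand and Hist1h2ac at chr13:23683949-23684098 on the minus strand. The capitals mark, from left to right, a GC box, a CCAAT box, a YY1 motif and a TATA box in Srsf2, a GC box and a YY1 motif in Ctcf, a ZNF143 motif in Psmd11, an ETS motif in Rpl37, an E-box, a GC box and a Kaiso-like motif in Atf7, and an octamer, a CCAAT box and a TATA box in Hist1h2ac.
Srsf2 promoter: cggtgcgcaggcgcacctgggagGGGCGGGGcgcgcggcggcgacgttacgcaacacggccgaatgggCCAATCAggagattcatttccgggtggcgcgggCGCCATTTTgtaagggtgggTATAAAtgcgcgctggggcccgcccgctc
Ctcf promoter: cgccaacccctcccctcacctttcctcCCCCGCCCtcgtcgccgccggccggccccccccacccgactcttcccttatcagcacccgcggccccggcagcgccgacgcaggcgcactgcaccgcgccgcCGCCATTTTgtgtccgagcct
Psmd11 promoter: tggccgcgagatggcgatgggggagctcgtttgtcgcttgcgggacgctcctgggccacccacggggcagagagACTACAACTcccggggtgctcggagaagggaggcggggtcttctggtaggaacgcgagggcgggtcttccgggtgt
Rpl37 promoter: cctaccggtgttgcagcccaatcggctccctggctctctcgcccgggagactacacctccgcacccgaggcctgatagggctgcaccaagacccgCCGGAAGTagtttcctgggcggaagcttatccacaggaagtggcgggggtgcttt
Atf7 promoter: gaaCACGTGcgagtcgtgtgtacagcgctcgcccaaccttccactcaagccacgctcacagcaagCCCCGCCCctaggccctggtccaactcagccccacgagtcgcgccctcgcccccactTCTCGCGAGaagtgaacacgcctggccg
Hist1h2ac promoter: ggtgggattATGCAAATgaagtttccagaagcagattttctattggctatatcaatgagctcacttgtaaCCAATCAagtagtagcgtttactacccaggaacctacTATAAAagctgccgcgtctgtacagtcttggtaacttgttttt

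Regions open in every library were mostly promoters. A region was called TSS-proximal when its centre, the middle of the stretch covered by most libraries, lay within 1000 bp of the start of a protein-coding transcript, and distal otherwise. By this measure 8098 of the 10157 members were TSS-proximal and 2059 were distal, a TSS-proximal share of 79.7% with an exact 95% interval of 78.9 to 80.5%. Intervals of shares here and below are Clopper-Pearson intervals and cover counting error only, since neighbouring regions and genes are not independent replicates. Among the 94087 merged regions that lacked a peak in at least 1 library the TSS-proximal share was 8.52% (8.34 to 8.70%).

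The share was higher with each further library, by small steps up to 5 libraries and by the largest step from 6 to 7. It was 5.71% among 52899 regions with a peak in 1 library, 8.13% in 2 libraries, 9.59% in 3, 11.2% in 4 and 12.6% in 5. Among the 6925 regions just outside the rule, with a peak in 6 libraries, it was 22.7% (21.7 to 23.7%), against 79.7% just inside it. The number of regions did not fall steadily either, as there were 10157 regions open in all libraries and 6925 open in all but 1.

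**Figure D1:**
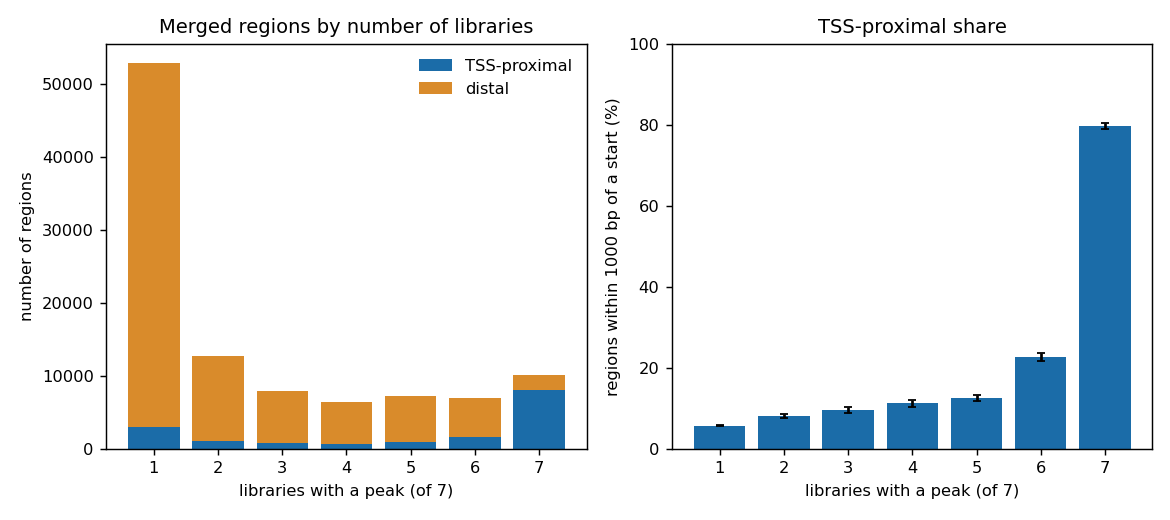
The left panel plots the number of merged regions (y axis) by the number of the 7 libraries with a peak (x axis), split into TSS-proximal and distal regions, and the right panel plots the TSS-proximal share in % with exact 95% intervals as error bars. The TSS-proximal share goes from 5.71% for 1 library to 22.7% for 6 and 79.7% for all 7.

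Which library was missing made a difference just outside the rule. Of the regions open in 6 libraries, 5209 lacked a peak in ESCs alone and 785 lacked it on day 0 alone, while days 2, 9, 1, 3 and 6 were the missing library for 456, 255, 122, 58 and 40 regions. Regions that lacked the ESC peak alone were TSS-proximal in 19.2% (18.2 to 20.3%), and regions that lacked the day 0 peak alone in 5.73% (4.21 to 7.60%). Those that lacked a single intermediate day were TSS-proximal in 45.1 to 62.1%. The ESC peak list was also the shortest, with 27074 peaks against 61241 on day 0 and 33007 to 48087 on the other days, and although the libraries were downsampled to a common depth, the lists hold no signal or score, so a lost region and a peak that missed the peak caller's threshold cannot be told apart. With the ESC library left out, 15364 regions met the rule in the other 6 libraries, and 59.2% of them were TSS-proximal. The 2413 regions that were open at both ends of the course, day 0 and ESCs, but lacked a peak in between were TSS-proximal in 44.5% (42.5 to 46.5%), which was below the share of the members.

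Fibroblast and pluripotency genes were used to check the labels. Of 26 fibroblast genes, 20 had a peak over a transcript start on day 0 and 4 in ESCs. Of 25 pluripotency genes, day 0 had such a peak at 6 and the ESC library at 8, and no library had a peak over a start of Sox2 or Nanog, ESCs included. Over all protein-coding genes, the share with such a peak was also lower in ESCs, at 39.9% against 50.9% on day 0. The fibroblast share was 76.9% on day 0 and 15.4% in ESCs, a larger fall than over all genes. The pluripotency share was 24% on day 0 and 32% in ESCs, against the direction of all genes. Thus each list differed in the direction of its label, the pluripotency list by few genes at the level of gene starts.

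Members were wide, and their peaks were wide in each library. The merged members had a median width of 827 bp (quartiles 719 and 981 bp, range 237 to 2040 bp) and together covered 8.87 Mb. TSS-proximal members had a median width of 847 bp and distal members 747 bp, against 360 bp for the regions that were not members. Since a wide region can collect a peak of each library more easily than a narrow region, width and membership are not independent.

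Within each library, the peaks in members were wider than the other peaks of the same library. On day 0 the median peak in a member was 690 bp wide and the median other peak 289 bp. On days 1, 2 and 3 the medians in members were 626, 576 and 646 bp against 292, 280 and 299 bp for other peaks. On days 6 and 9 they were 662 and 608 bp against 285 and 278 bp, and in ESCs 518 bp against 310 bp. Members held 17.6% of all peaks on day 0, 24.4, 33.9, 22.9, 24.4 and 33.5% on days 1, 2, 3, 6 and 9, and 40.6% in ESCs, so the share was highest in the library with the fewest peaks. They held 74.7 to 84.5% of the widest 10% of peaks of each library.

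**Figure D2:**
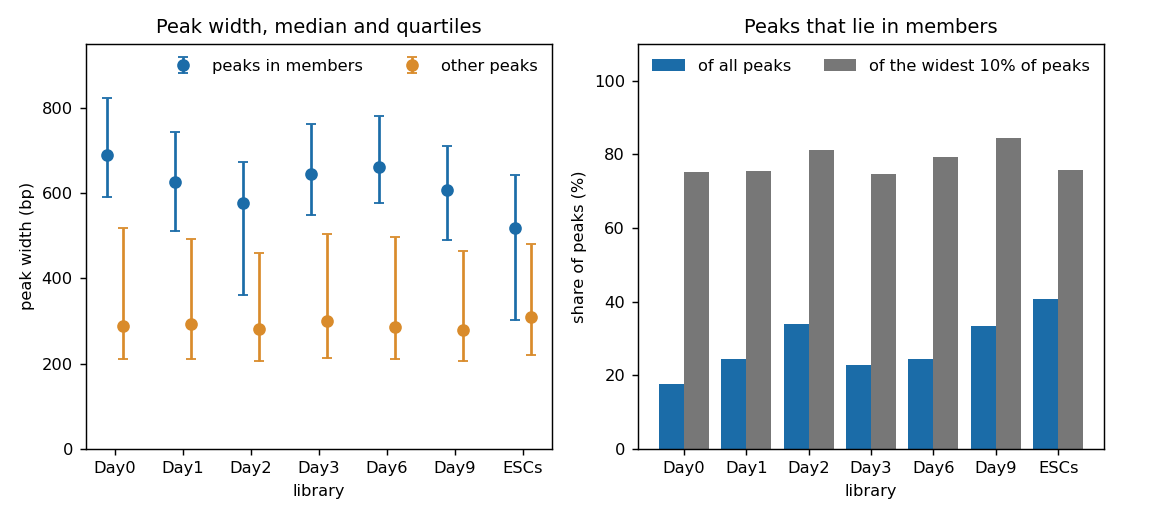
The left panel plots peak width in bp by library for peaks in members and for other peaks, with points at the median and bars from the lower to the upper quartile, and the right panel plots the share of all peaks and of the widest 10% of peaks that lie in members. In each library the median peak in a member (518 to 690 bp) is wider than the median other peak (278 to 310 bp).

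The ESC library had the lowest median cover of the members, though not the lowest cover at each of them. The median number of bases per member under a peak was 710 on day 0, then 655, 602, 669, 684 and 629 on days 1, 2, 3, 6 and 9, and 551 in ESCs. Day 0 had the most covered bases of all libraries, ties included, in 3746 members (36.9%) and ESCs in 386 (3.80%). The difference in ESCs was larger at distal members, from a median of 624 bp on day 0 to 437 bp in ESCs, than at TSS-proximal members, from 733 to 578 bp. Since the number of peaks and the covered bases were both lowest in ESCs, the part that sensitivity of the library had in these widths was not tested.

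A peak of each library in a region does not mean that all libraries were open at the same bases. The stretch covered by peaks of all 7 libraries had a median of 433 bp (quartiles 213 and 564 bp, longest 1336 bp). Its median was 473 bp at TSS-proximal members and 228 bp at distal members. In 9198 members it spanned at least 100 bp. In 621 members (6.11%) no base was covered by all libraries, which held for 367 TSS-proximal (4.53%) and 254 distal members (12.3%), and in 547 of them 6 libraries still shared a base. At the edge of a shared base, 4 members had exactly 1 base in common, among them the regions nearest to Jag1, which encodes a Notch ligand, to Fat4, an atypical cadherin, and to Gse1.

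The promoters with the widest shared stretches are given as a description, since choosing them by that stretch fixes that each library had a wide peak there. The member at the start of Nr1d2, a nuclear receptor of the circadian clock, lies at chr14:18238181-18239661 and had 1456 bp under peaks on day 0, then 1317, 1393, 1481, 1395 and 1423 bp on days 1 to 9 and 1334 bp in ESCs, with 1296 bp shared by all. The member at Setd5, which encodes a SET domain protein, spans chr6:113076043-113077681 and had 1561, 1481, 1380, 1507, 1639, 1346 and 1373 bp in the same order, with 1280 bp shared. The member at Sp4, which encodes a factor of the Sp family, had 1518, 1508, 1532, 1514, 1638, 1313 and 1467 bp and shared 1261 bp. In each of these the ESC library lay within the range of the others. The widest of all was the member at Ppp2r3d, a regulatory subunit gene of protein phosphatase 2A, with 1336 bp shared and peaks of 1912 bp on day 0 to 1521 bp in ESCs, followed in the same group by Sap130, a component of the Sin3 repressor complex, with 1279 bp shared.

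Distal members could be as wide. The member with the widest shared stretch among them, 1283 bp, lies 2149 bp downstream of the start of Rap2b at chr3:61363045-61364891, in an exon of that small GTPase gene, and its peaks spanned 1762 bp on day 0 and 1443 bp in ESCs. The member closest to A830005F24Rik lies 32370 bp from its start, in intergenic sequence, and shared 1210 bp. A member 32094 bp upstream of a start of Zbtb20, a zinc finger repressor gene, shared 1061 bp, and a member in an intron of Clec11a and an intergenic member nearest to Pecr shared 991 and 956 bp. These genes only name the closest start, and whether the regions act on them was not measured.

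At the other end were members with little or no stretch shared by all libraries. The member at the start of Sgk3, a kinase gene, spans chr1:9847893-9848696, and its peaks covered 258, 200, 564, 510, 457, 476 and 223 bp from day 0 to ESCs without a base in common. The member at Stau2, which encodes a double-stranded RNA binding protein, spanned 1330 bp but had 1047 bp under peaks on day 0 and 218 bp in ESCs. At Jag1 the 7 libraries shared a single base although the peaks covered between 486 and 1143 bp. At Sgk3 and Stau2, where up to 6 libraries shared a base, membership thus rests on the merging.

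TSS-proximal members were centred on the start. Their centres lay a median of 15 bp upstream of the nearest start (signed median -15 bp, quartiles -96 and 64 bp), and the start lay inside the region in 97.4% of 8098 members. Among the 8017 other TSS-proximal regions the start lay inside in 55.6%. Peak cover was highest 60 bp downstream of the start in every library, where 95.6% of the TSS-proximal members had a day 0 peak and 87.5% an ESC peak, with 92.8, 89.9, 94.0, 94.8 and 92.2% on days 1, 2, 3, 6 and 9. At 500 bp upstream, cover was down to 21.0% on day 0 and 10.8% in ESCs, and at 500 bp downstream to 19.4 and 8.66%. Between these points the ESC profile was the lowest on both flanks, with 73.9% at 200 bp upstream and 69.1% at 200 bp downstream against 92.1 and 87.9% on day 0.

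The base composition of TSS-proximal members was that of CpG islands. A window of 200 bp at the centre was called CpG-island-like when its GC content was at least 50% and its CpG count at least 0.6 of that expected from its bases. Of the TSS-proximal members 85.3% (84.5 to 86.1%) met this, against 45.6% (44.5 to 46.7%) of the other TSS-proximal regions. The same held on a lower level over 1000 bp from protein-coding starts, with 27.7% (25.8 to 29.7%) of distal members against 3.46% (3.34 to 3.58%) of other distal regions. The median GC content was 67% in TSS-proximal members and 55.5% in distal members, against 59.5 and 46.5% in the other regions. TSS-proximal regions open on day 0 and in ESCs that lacked a peak in between came close to the members. Their windows were CpG-island-like in 74.8% (72.1 to 77.4%), with a median GC content of 68.5%.

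Motifs were searched on both strands in the same 200 bp windows, with exact letters and N for any base. The promoter motifs were the GC box GGGCGGGG of Sp and Klf factors, the CCAAT box CCAATCA of NF-Y, the E-box CACGTG of Myc, Max and Usf, the ETS motif CCGGAAGT, the YY1 motif AANATGGCG, the CRE TGACGTCA of Creb and Atf factors, the NRF1 motif GCGCATGCG, the ZNF143 motif ACTACAANT, the Kaiso-like motif TCTCGCGAG and the E2F motif TTTNGCGC. The others were the TATA box TATAAA, the AP-1 motif TGANTCA, the octamer ATTTGCAT of POU factors such as Oct4, the SOX motif CCATTGT, the RUNX motif TGTGGTT, the TEAD motif ACATTCC, the KLF motif GGGTGTGG, and for CTCF a consensus of 14 letters and its short core CAGGGGGCG, which overlaps the consensus. Of the 9000 matches in members, 2.93% overlapped a match of another motif. A match is a match of letters and not a bound site.

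The promoter motifs were more frequent in TSS-proximal members than in the other TSS-proximal regions. At least 1 of the 10 was found in 50.6% (49.5 to 51.7%) of members and in 20.4% (19.5 to 21.3%) of the others, and at least 2 in 12.4 and 2.03%. The GC box was present in 28.4% against 11.6%, the CCAAT box in 9.16% against 2.33% and the E-box in 7.21% against 4.15%. The ETS motif was present in 5.98% against 1.05%, and the YY1 motif in 4.16% against 0.985%. The CRE, NRF1 and ZNF143 motifs were found in 2.57, 2.36 and 1.80% of members against 0.599, 0.499 and 0.412%, and the E2F motif in 1.67% (1.40 to 1.97%) against 0.886% (0.692 to 1.12%). The difference was widest in relative terms for the Kaiso-like motif, bound by the methyl-CpG binding protein Kaiso among others, with 1.46% (1.21 to 1.74%) against 0.150% (0.0774 to 0.261%).

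Other motifs were less frequent in the members. The TATA box was found in 1.90% of TSS-proximal members against 4.64% of the others, and the AP-1 motif in 2.17% against 5.60%. Base composition and position moved with these shares, as members were richer in GC and more often contained the start. Within windows of 60 to 70% GC, the CCAAT box stood at 10.2% (9.24 to 11.3%) against 1.97% (1.44 to 2.64%), the ETS motif at 7.84% against 1.66% and the NRF1 motif at 2.71% against 0.763%. The gap was narrower than over all windows for the GC box, at 26.5% against 15.7%, and for the E-box, at 7.78% against 5.34%. At 40 to 50% GC the E-box intervals overlapped, with 5.05% (2.55 to 8.85%) against 2.42% (1.67 to 3.39%). The TATA box stood at 1.76% (1.35 to 2.25%) against 1.89% (1.36 to 2.54%) at 60 to 70% GC, and its intervals also overlapped at 40 to 50% and 50 to 60% GC. AP-1 was less frequent in members at 40 to 50% GC, with 4.13% (1.90 to 7.69%) against 11.4% (9.75 to 13.2%), and at 50 to 60% GC, with 3.22% (2.39 to 4.25%) against 6.72% (5.76 to 7.78%), while at 60 to 70% GC its intervals overlapped, with 2.45% (1.96 to 3.02%) against 3.28% (2.58 to 4.10%). Whether the position of the centre relative to the start has a part in these differences was not tested.

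**Figure D3:**
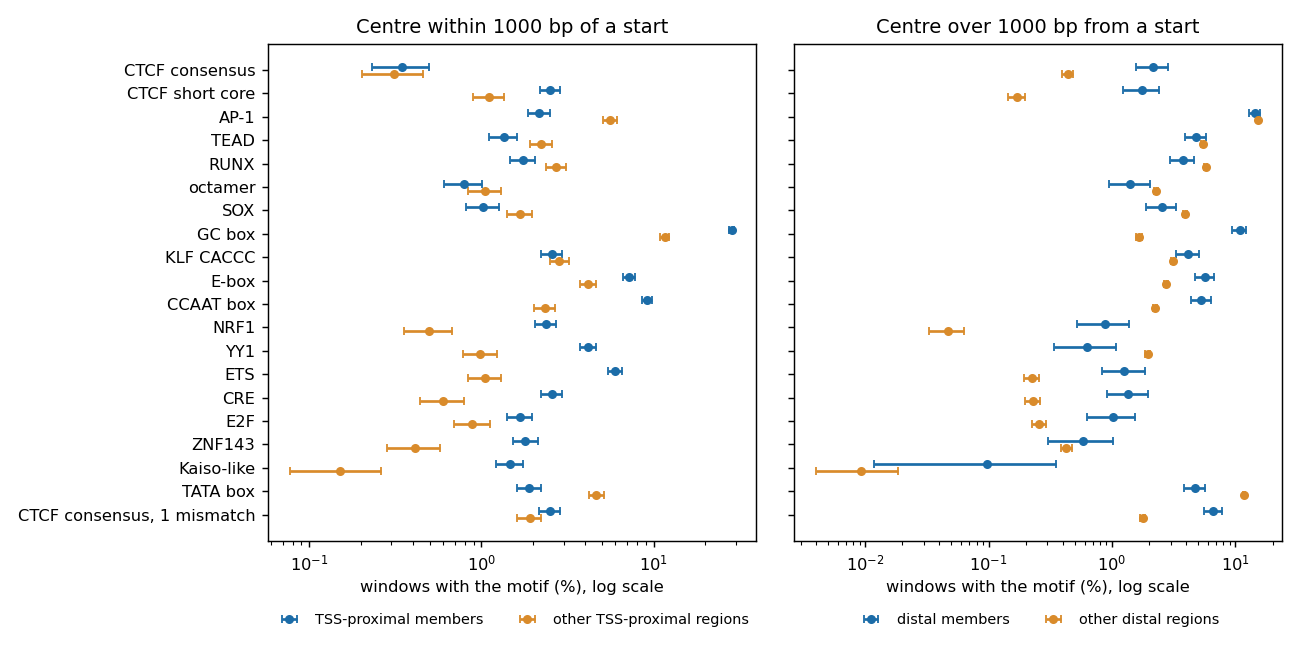
Share of 200 bp windows with each motif in %, on log axes, with exact 95% intervals as error bars, for TSS-proximal members and other TSS-proximal regions in the left panel and for distal members and other distal regions in the right panel. The GC box is at 28.4% against 11.6% on the left and at 10.8% against 1.65% on the right, whereas AP-1 on the right is at 14.3% against 15.2%.

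Most of the promoter motifs were found at preferred places around the 8082 starts of these members. Within 300 bp on either side, 84.6% of the 1437 CCAAT boxes lay upstream, with a median position of -70 bp. The ZNF143 motif lay further upstream, with a median of -88 bp and 83.1% upstream. The CRE and GC box had medians of -43.5 and -45.5 bp, and the ETS motif was found near the start itself with a median of -20.5 bp. The E2F motif was spread widely, with quartiles of -146 and 91.5 bp and 57.7% upstream. The YY1 motif, as the only promoter motif of the 10, had a median downstream of the start, at 25 bp, with 30.0% of 864 matches upstream. In the Srsf2 and Ctcf promoters printed above the YY1 match lies upstream of the gene start, the less common side, while the CCAAT box of Srsf2 lies on the common side.

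Distal members differed from the other distal regions in place and sequence. Of the 2059, 58.4% were intergenic, 33.9% intronic and 7.72% exonic, against 50.5, 45.6 and 3.87% of the other 86070. Their median distance to the closest protein-coding start was 18517 bp against 33070 bp. In 21.9% (20.1 to 23.7%) the centre lay within 1000 bp of the start of another annotated transcript, such as a non-coding RNA, against 5.82% (5.66 to 5.97%) of the other distal regions. These 450 members resembled promoters more than the remaining 1609 did, with CpG-island-like windows in 50.4% (45.7 to 55.2%) against 21.4% (19.4 to 23.5%) and GC boxes in 16% against 9.32%. On average 9.53% of the bases in the windows of distal members were marked as repeats in the reference, against 19.6% in the other distal regions.

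The CTCF consensus was found in 44 of the 2059 distal windows, or 2.14% (1.56 to 2.86%), against 0.439% (0.396 to 0.486%) of the other distal windows. With 1 mismatch allowed the shares were 6.61% (5.57 to 7.77%) and 1.77% (1.69 to 1.86%), and for the short core 1.75 and 0.170%. The members thus held the consensus several times as often as the pooled other distal regions, but most had no match even with a mismatch. Among these others, 1340 distal regions were open on day 0 and in ESCs but lacked a peak in between. Their consensus share was 1.57% (0.973 to 2.39%), with an interval that overlapped that of the members. A share above the pooled 0.439% was therefore not particular to the members. The share was 0.289% for regions open in 1 library and 0.897% for regions open in 6. Within windows of 50 to 60% GC it was 2.16% (1.33 to 3.32%) against 0.790% (0.682 to 0.912%), and over 1000 bp from any annotated start 2.18% (1.52 to 3.01%) against 0.431% (0.387 to 0.478%). In TSS-proximal members the consensus was rare, at 0.346% (0.230 to 0.499%) against 0.312% (0.202 to 0.460%).

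The size of this difference depended on where the window was placed. Around distal centres, CTCF matches were concentrated 100 to 200 bp away on both sides. In other distal regions there were 2346 matches at 100 to 200 bp and 425 within 100 bp, a ratio of 5.52, and 44.6% of the matches within 200 bp lay inside the merged region itself. In distal members the ratio was 1.59 (78 and 49 matches) and 99.2% lay inside the region. AP-1 matches were spread more evenly, with ratios of 1.14 in other distal regions and 0.906 in distal members. In windows of 400 bp, therefore, the share with a CTCF consensus was 5.83% (4.86 to 6.93%) in distal members and 3.16% (3.05 to 3.28%) in the others, a narrower gap than at 200 bp. Over whole merged regions it was 6.90% (5.84 to 8.08%) against 1.51% (1.43 to 1.59%), where the members are also wider.

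**Figure D4:**
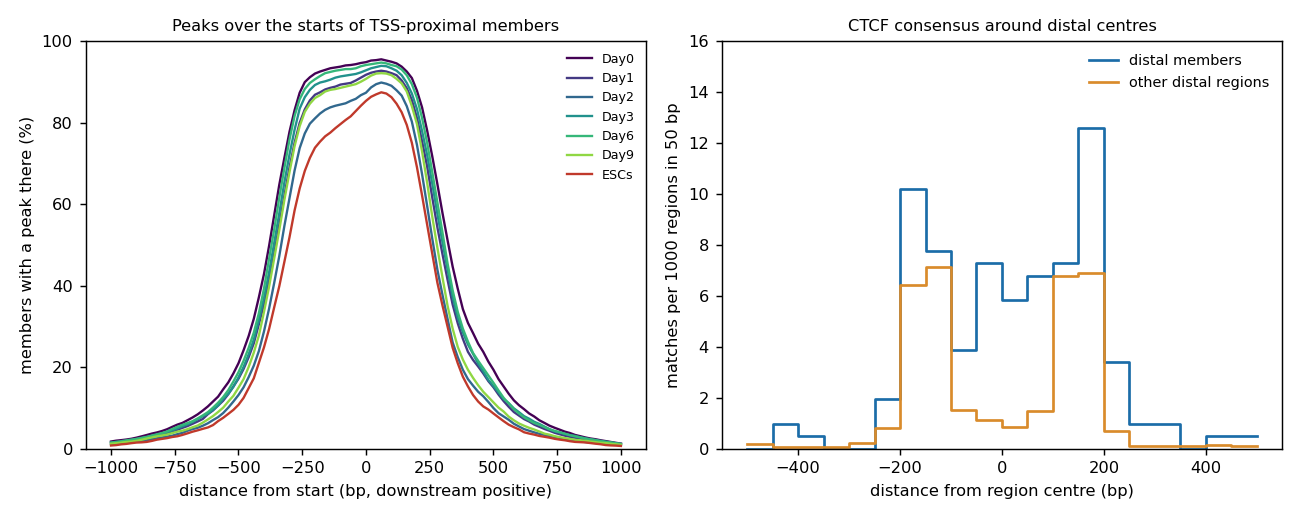
The left panel plots the share of TSS-proximal members with a peak in % by the distance from the start in bp for each library, and the right panel plots CTCF consensus matches per 1000 regions in bins of 50 bp by the distance from the centre for distal members and other distal regions. Peak cover is highest at 60 bp downstream in every library (95.6% on day 0, 87.5% in ESCs), and CTCF matches of other distal regions stand at 6.44 to 7.12 per 1000 between 100 and 200 bp from the centre and at 0.837 to 1.51 within 100 bp.

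The distal members with a CTCF consensus are likewise named by the widest shared stretch, which fixes that each library had a wide peak there. The member nearest to Rassf7, 5192 bp from its start at chr7:141221524-141222432, had 803 bp under peaks on day 0, 707 to 909 bp on days 1 to 9 and 686 bp in ESCs, with 648 bp shared. The member nearest to Olfr750, at chr14:51064658-51065527, had 815 bp on day 0, 611 to 833 bp on days 1 to 9 and 704 bp in ESCs, with 597 bp shared. A member in an exon of Synpo2l had 632 bp on day 0 and 626 bp in ESCs and shared 584 bp. The ESC library was within the range of the others at Olfr750 and Synpo2l and lowest at Rassf7.

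Over all distal windows, AP-1 was found in 14.3% (12.8 to 15.9%) of distal members and in 15.2% (14.9 to 15.4%) of the other distal regions, an interval that included the share of the others. Within windows of like GC content it was more frequent in distal members, at 16.4% against 13.1% for 50 to 60% GC and at 8.14% against 3.98% for 60 to 70% GC, with intervals that did not overlap, whereas at 40 to 50% GC the shares were 20.2% (16.6 to 24.2%) and 17.0% (16.6 to 17.3%) with intervals that overlapped. The share was 22.2% (20.9 to 23.4%) in the 4207 distal regions that were open from day 0 to day 9 and lacked an ESC peak, and 11.2% (9.03 to 13.7%) in the 740 that lacked the day 0 peak. Among distal members the AP-1 motif was less common near other annotated starts, at 6.67% (4.54 to 9.38%), than away from them, at 16.5% (14.7 to 18.4%). GC boxes stood at 10.8% of distal members against 1.65%, CCAAT boxes at 5.29% against 2.23% and E-boxes at 5.68% against 2.76%. The octamer, SOX and RUNX motifs were less frequent in distal members, at 1.41, 2.53 and 3.74% against 2.28, 3.89 and 5.73%, as was the TATA letter sequence at 4.71% against 11.8%. The YY1 motif, which was frequent at promoter members, was found in 0.631% (0.337 to 1.08%) of distal members against 1.94% of other distal regions. In the distal regions open from day 0 to day 9 without an ESC peak it stood at 0.285% (0.147 to 0.498%), so the low share was not particular to the members.

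The genes whose starts lay in these regions were counted over all transcripts of a gene. Of 21670 protein-coding genes, 8639 had a transcript start in a member, which is 39.9%, and of 9603 long non-coding RNA genes 978 did, which is 10.2%. A start inside a member need not itself be covered by all libraries, and 6619 protein-coding genes (30.5%) had a start base under a peak of all 7. Of the members, 6834 held the start of 1 protein-coding gene, 865 of 2 and 25 of 3, and 2433 held none. Genes of divergent pairs, which start close to each other on opposite strands, had a start in a member in 79.6% (77.5 to 81.6%) of 1481 cases against 37.0% (36.3 to 37.6%) of the other genes, and in 536 of the 748 pairs both genes started in the same member. On chromosome X the share of genes was 23.9% (21.3 to 26.8%) against 40.6% (39.9 to 41.3%) on autosomes, but the share of X genes with any peak over a start was also lower, at 35.2% on day 0 against 51.6%.

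Gene groups of basic cell functions were found in members well above the 39.9% of all protein-coding genes. That background includes 9245 of 21670 genes without a start peak in any library, as were 5 of 83 ribosomal protein genes and 62 of 391 Zfp genes. Shares among genes with a start peak in at least 1 library were not computed. The shares below thus do not separate being open in every library from being open at all. All 20 genes of DNA replication licensing, which load and activate the replicative helicase, had a start in a member. Of 26 chaperonin and heat shock genes 25 did, and of 20 cytoplasmic aminoacyl-tRNA synthetase genes, which charge tRNAs, 19 did, with Farsb as the exception. Splicing factors followed with 28 of 34, translation initiation factors with 43 of 54, the proteasome with 30 of 39 and the mitochondrial ribosome with 56 of 75. Ribosomal protein genes were at 62 of 83, histone lysine modifiers at 38 of 51, snoRNA host genes at 11 of 15 and oxidative phosphorylation at 66 of 93. The Zfp zinc finger genes, a large family of DNA-binding repressors and other factors, reached 237 of 391, or 60.6% (55.6 to 65.5%). Counting only starts under a peak of all 7 libraries lowered these numbers, to 17 of 20 for replication licensing, 22 of 26 for chaperones, 18 of 20 for the synthetases, 50 of 83 for ribosomal proteins and 17 of 34 for splicing factors.

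Within these groups the peak cover differed between libraries to a varying degree. At Rpl7, the ribosomal protein gene with the widest shared stretch, peaks covered 1258 bp on day 0, 1230, 1121, 1661, 1300 and 1237 bp on days 1 to 9 and 906 bp in ESCs. At Mcm7, a subunit of the replicative helicase, peaks covered 1480 bp on day 0, 1367, 1072, 1559, 1281 and 1223 bp on days 1 to 9 and 1107 bp in ESCs. At Srsf2, an SR splicing factor, they covered 1131, 1099, 1031, 1119, 1103, 963 and 1072 bp, and at Hspa8, the constitutive Hsp70 chaperone, 1029, 932, 950, 994, 918, 946 and 884 bp. At Rpl37, a protein of the large ribosomal subunit, they covered 818, 723, 715, 762, 784, 844 and 687 bp. ESCs had the narrowest cover at Rpl7, Hspa8 and Rpl37 but not at Mcm7 or Srsf2. The chaperonin subunit Tcp1 and the mitochondrial ribosomal protein Mrpl18 start from the same member, which shared 756 bp, and the histone genes Hist1h2ac and Hist1h2bc share a member with 892 bp in common, narrowest in ESCs.

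In some groups the count did not separate from the background. Replication-dependent histone genes, which are expressed in S phase and many of which lie in near-identical copies where reads are hard to place, stood at 25 of 67. The shares of RNA polymerase II subunits (7 of 12, 58.3%), commonly used reference genes (10 of 16, 62.5%) and AP-1 factors (10 of 17, 58.8%) were above it, but with so few genes their intervals included 39.9%, as did that of the histone genes. Of the reference genes, Gapdh, Hprt, Tbp and B2m had a peak over a start in each of the 7 libraries, while Actb and Gusb had one in 6 libraries and lay outside the members. Among AP-1 factors the starts of Jun, Jund, Fosl2, Atf2, Atf3, Atf7, Maff and Mafk were covered in all 7 libraries and those of Fos and Jdp2 in 6, whereas Junb and Fosl1 lay outside. Jun had 1479 bp under peaks on day 0, 1649 bp on day 3 and 854 bp in ESCs.

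The proteins that hold loops and insulators together were themselves among the members. Of 13 genes of CTCF and cohesin 10 had a start in a member, namely Ctcf, the cohesin subunits Smc1a, Smc3, Rad21 and Stag1, the regulators Pds5a, Pds5b and Wapl, the loader subunit Mau2, and Yy1. Each of the 7 libraries had a peak over a start of these genes except at Smc3, where 4 did. At Ctcf the peaks covered 1058, 817, 1157, 1041, 1025, 1126 and 1041 bp from day 0 to ESCs. The loader gene Nipbl and the cohesin gene Stag2 had a start peak in 5 libraries and lay outside the members, as did Zfp143, with a start peak in none of the lists analysed here.

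Genes of the starting and the end state were not above the background. Of 25 pluripotency genes 5 had a start in a member (20%, 6.83 to 40.7%), which were Klf2, Klf4, Klf5, Tbx3 and Fbxo15. Klf4, whose transgene copy is part of the cassette, cannot be told apart from its endogenous copy in reads that match both. Klf2 had 821 bp under peaks on day 0, 591 to 720 bp on days 1 to 9 and 637 bp in ESCs, and Tbx3 had 1100 bp on day 0, 713 to 1052 bp on days 1 to 9 and 831 bp in ESCs, so both were open in MEFs already and both had less cover in ESCs than on day 0, as TSS-proximal members had in the median. Of 26 fibroblast genes 9 were in members, at 34.6% (17.2 to 55.7%), namely Vim, Fn1, Snai1, Snai2, Twist1, Cdh2, Fbn1, Col5a1 and Pdgfra. Counting only starts under a peak of all 7 libraries left 3 of 26 fibroblast genes (11.5%) and 4 of 25 pluripotency genes (16%), against 30.5% of all protein-coding genes. Cdh2 had a start peak in 3 libraries, Col5a1, Pdgfra and Fbxo15 in 4 and Snai2 in 5, so being in a member did not mean an open start in every library.

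The median cover of TSS-proximal members was 733 bp on day 0 and 578 bp in ESCs. Among the fibroblast promoters whose cover is given here, the difference between these libraries was largest at Vim. A large difference was not particular to Vim, as the member at Sema4c had 1392 bp on day 0 and 200 bp in ESCs. At Vim, the intermediate filament of mesenchymal cells, peaks covered 1270 bp on day 0, 1171, 1114, 1258, 1209 and 1246 bp on days 1 to 9 and 452 bp in ESCs, which was the only library below 1114 bp. At Fn1, which encodes fibronectin, they covered 875 bp on day 0 and 749 bp in ESCs, with day 9 lowest at 598 bp. At Snai1, a repressor of epithelial genes, they covered 674 bp on day 0, 586 to 620 bp on days 1 to 9 and 557 bp in ESCs. Snai2, a related repressor, had 792 bp on day 0 and 546 bp in ESCs with day 2 lowest at 485 bp and only 251 bp shared by all.

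Epithelial, Hox, blood cell, liver and olfactory receptor genes had a start in a member less often than all protein-coding genes. Of 20 epithelial genes, Jup and Tjp1 were in members, at 10% (1.23 to 31.7%). Of 15 neuronal genes Map2, Syt1, Elavl4 and Tubb3 were, the last of these without a base shared by all libraries. The neuronal share was 26.7% (7.79 to 55.1%), with an interval that included the 39.9% of all protein-coding genes. Of 39 Hox genes, 5 had a start in a member, at 12.8% (4.30 to 27.4%), and the shared stretch was 200 bp at Hoxa10, 194 bp at Hoxa7 and 178 bp at Hoxd10. None of 15 blood cell genes, 12 liver genes and 1092 olfactory receptor genes had a start in a member, and 1087 of the olfactory receptor genes had no start peak in any library.

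**Figure D5:**
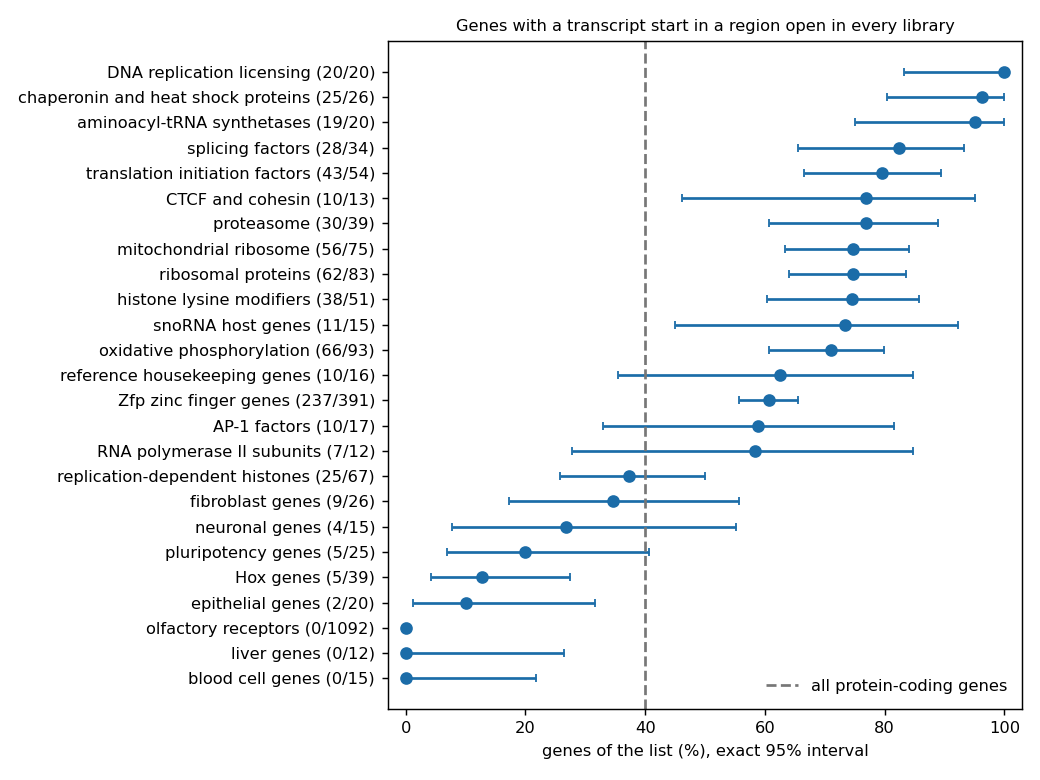
Share of genes in % with a transcript start in a region open in every library for 25 gene lists, with exact 95% intervals as error bars, counts in parentheses and a dashed line at the 39.9% of all protein-coding genes. Replication licensing (20 of 20), chaperones (25 of 26) and aminoacyl-tRNA synthetases (19 of 20) are at the top, and blood, liver and olfactory receptor genes have no gene in a member.

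Members were spread over all 20 chromosomes analysed, at 1.46 per Mb on X to 6.38 per Mb on chromosome 11. The TSS-proximal share varied little between chromosomes, from 76.2% on chromosome 14 to 84.3% on X, and their intervals overlapped. Among merged regions the share of members ranged from 7.64% on chromosome 1 to 12.4% on chromosome 7.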

How the data were processed

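ATAC-seq peaks of 7 mouse libraries were analysed, 1 per time-point, without replicates. Per the labels and the methods, the authors used Trimmomatic on the paired-end reads, Bowtie2 for the mapping (build mm10) and Picard against duplicates, downsampled the libraries to a common depth that is not stated and called peaks per library with MACS2. The deposited files give peak positions alone, with no score, and the read depth is unknown. The shortest peak was 200 bp.

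Peaks were merged in Python 3.11.15 with numpy 2.4.6, scipy 1.17.1 and pysam 0.24.0, and BEDTools 2.31.1 gave the same 10157 members. The code was tested on simulated data, where 100% of 2000 planted regions were found. Starts are from GENCODE M21 and sequence is from the RefSeq copy of GRCm38, which has the coordinates of mm10. A divergent pair is a pair of protein-coding genes with starts at most 1000 bp apart on opposite strands.

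Named members are those with the widest shared stretch of each class or gene list, the narrowest, and those without a shared base. Klf4, Smc3, Actb and other genes named without widths were chosen after their values were seen. The members, gene lists and motifs were chosen with earlier results of these data known. Alternatives changed peak width, merging distance, the shared stretch, the libraries, the starts and distances used, and the motif window.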

Additional observations from a re-analysis of the deposited data

Results flagged for a closer look

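Outside chromosomes 1 to 19 and X, 15 of 102 merged regions had a peak in all 7 libraries. This set was looked at because it lies outside the main measurement. Both regions on the mitochondrial genome were open in every library, as were 13 of 96 on unplaced and unlocalised contigs, and none of 4 on chromosome Y was. Whether mapping or copy number has a part in these values was not tested.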

How the results depend on the processing

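The number of members lay between 6778 (peaks at least 300 bp wide) and 11020 (days 0, 1, 3 and 6 with ESCs, 5 libraries), except without the ESC library, where it was 15364, and it was 10183 to 15364 when each library was left out in turn. The TSS-proximal share was 87.0% with peaks at least 300 bp wide, 81.1% with a shared base, 77.8% in these 5 libraries, 83.7% with the 27074 widest peaks per library, 77.5 and 81.5% at 500 and 2500 bp, 84.2% with the starts of all transcripts and 71.9% with 1 start per gene, and 59.2 to 79.7% when each library was left out, lowest without ESCs. The CTCF share of distal members was 3.40% with peaks at least 300 bp wide, 5.83% in 400 bp windows, 6.90% in whole regions and 6.61% with 1 mismatch, and 1.44 to 2.21% when each library was left out, again lowest without ESCs. Protein-coding genes with a start in a member numbered 6478 to 9483. The split by GC content and the gene counts were added after the data were seen. No paired analysis was possible because no group has more than 1 sample. The common read depth is not stated and peaks have no score, so the reason why a peak is missing is unknown.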
